A study of Rattus norvegicus with 24 samples.

Results

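The extraocular muscles (EOM), the small muscles that move the eye, were compared between rats (Rattus norvegicus) of 18 and 6 months. The comparison takes the 4 EOM arrays labelled 18 months against the 4 labelled 6 months, 8 of the 24 arrays in the series, and every probe set on the array except the controls, 8740 of 8799. Short probes for the same transcript form a probe set and share 1 value. The series also holds EOM at 30 months and the extensor digitorum longus (EDL), a fast hindlimb muscle that extends the toes, at the same 3 ages, with 4 arrays per group. Each array measured total RNA combined from 4 rats, so each p-value is set against the spread among pools of animals. The sources used here give no strain, sex, diet or time of day for any group, and name no treatment. They also do not say whether pools of the same replicate number shared animals or a preparation, or how far the dissection kept the muscles from the other tissues of the orbit.

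Extraocular muscle differs from limb muscle in that it keeps myosins that limb muscle loses after development and holds an extraocular myosin of its own, encoded by Myh13. The muscles lie in the orbit among fat, nerves, vessels and glands, the latter including the Harderian gland, whose cells make and secrete lipid. Fatty acids are built from acetyl-CoA that ATP citrate lyase (Acly) splits from citrate and fatty acid synthase (Fasn) extends, and Insig1 holds back the sterol-regulated factors that switch such genes on. In a bulk RNA sample, fewer cells of a type and less RNA per cell cannot be told apart.

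The labelled tissue carried its defining marker at both ages. Signals, in the arbitrary units of the array, are given throughout in the order of replicates 1 to 4. Myh13 (Entrez gene 29605) read 15738.5, 10667, 12729 and 14829.5 at 6 months and 15716, 16204, 15288.5 and 15323 at 18 months, against group means of 87.5 ± 17.7 (SD, n = 4) and 99.0 ± 13.6 in EDL. Perinatal myosin, Myh8 (252942), read 5009.9, 5934, 5606.5 and 4874 at 6 months and 5064, 5377, 6720.1 and 4312.5 at 18 months, and its EDL mean at 6 months was 32.7 ± 14.6. Both myosins overlapped between the 2 ages in EOM. Over the 8 arrays the median signal was 104.5 to 136.8 units and each array correlated with its group at a median Spearman coefficient of 0.947 to 0.962. Beta-actin signal at the 3' end over that at the 5' end, a sign of RNA integrity, was 1.34 to 1.47 at 6 months and 1.13 to 1.62 at 18 months.

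Complement C3, the xylosyltransferase Xylt2 and Ttc38 fell in EOM between 6 and 18 months, and the calcium pump Atp2b2 rose. Pyruvate carboxylase Pc fell on a probe set that is not its brightest, and its brightest was not called. When arrays were matched by replicate number, 4 of 24 tested genes of lipid synthesis (Insig1, Fasn, Elovl5 and Cyp51) fell as well, against 21 of all 3222 genes. So did Ctse and Cldn7, 2 of 20 tested orbital gland genes, of which 10 had a lower and 10 a higher mean. Of 5370 probe sets tested (3222 named genes), limma called 5 at an adjusted p under 0.05, which is 0.0931% of those tested, 1 higher and 4 lower at 18 months, and 328 had an unadjusted p under 0.05 (145 higher, 183 lower). Arrays with the same replicate number were positively correlated in their deviations from the group means. With the replicate number as a block, an alternative to the planned fit, 36 probe sets were called, 0.67% of those tested, 2 higher and 34 lower. On 105 probe sets (1.96%) all 4 arrays at 18 months lay above all 4 at 6 months, and on 119 (2.22%) all lay below. Non-overlap together with a mean difference over 2-fold was met by 63 probe sets (1.17%), 9 higher and 54 lower. The direction was therefore uneven among large differences, while over all probe sets the median log2 difference was 0.04, with 3064 higher and 2306 lower. The called count rests on single arrays: without 1 array at a time it was 0 to 2, and the blocked count was 1 to 36, falling to 1 without replicate 1 or replicate 3 at 6 months or without replicate 4 at 18 months.

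**Figure D1:**
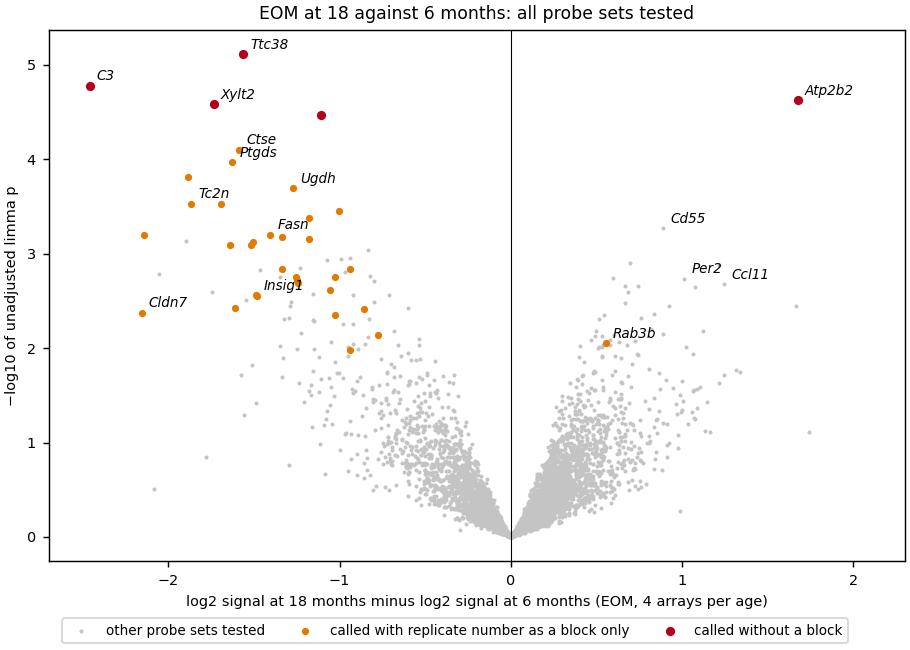
Difference in log2 signal between 18 and 6 months in EOM (x axis) against −log10 of the unadjusted limma p (y axis) for each of the 5370 probe sets tested. The 5 probe sets called without a block and those called only with replicate number as a block lie mostly on the left, lower at 18 months.

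C3, the complement protein on which all activation routes converge, showed the largest difference. Its signal (24232) was 226, 85.7, 260 and 149 at 6 months and 24.7, 10.2, 38.9 and 11.1 at 18 months, a log2 difference of -2.46 ± 0.39 (SE; adjusted p = 0.0351, limma, n = 4 against 4; 0.011 with the block). The groups did not overlap, 2 of the 4 arrays at 18 months lay at the floor set for low values, and the difference is understated by that floor. A dimmer probe set of C3 gave -2.06 and was not called.

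Ttc38, which encodes a protein with tetratricopeptide repeats, read 473, 411, 581 and 489 at 6 months and 183, 160.3, 157 and 158 at 18 months. Its log2 difference was -1.56 ± 0.23 (adjusted p = 0.0351, limma), a 2.95-fold fall, to nearly equal levels on replicates 2 to 4 at 18 months. Xylosyltransferase 2 (Xylt2), which starts the sugar chains of proteoglycans, read 257, 254.5, 243 and 169 and then 133, 54.8, 59.3 and 50.4, a log2 difference of -1.74 ± 0.29 (adjusted p = 0.0351, limma). Replicate 1 at 18 months stood above the other three, and still below every array at 6 months. Pyruvate carboxylase (Pc), which makes oxaloacetate from pyruvate, read 506, 415, 532 and 439 and 239.5, 265, 189 and 188.5 on the probe set that was called, with a log2 difference of -1.11 ± 0.19 (adjusted p = 0.0366, limma). That probe set is not the brightest of the gene. The brightest, which stands for Pc among all genes tested, also did not overlap between ages and was not called. Pc is in none of the gene lists, since the lipid synthesis list names it by another symbol, Pcx. The calls of the first 3 were lost in most fits that left out 1 array: C3 and Ttc38 were called in 1 of 8 such fits (without replicate 2 at 6 months) and Xylt2 in 1 of 8 (without replicate 1 at 18 months). The adjusted p over these fits was 0.0202 to 0.153 for C3, 0.0422 to 0.153 for Ttc38 and 0.00195 to 0.153 for Xylt2. Pc was not followed singly through these fits.

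Beyond these, 5 genes had the smallest p-values among the lower genes. They were not called without the block, and all were called with it. Cathepsin E (Ctse), an aspartic protease of epithelial and immune cells, read 2606.5, 2274.5, 4336 and 3378.5 at 6 months and 732, 1050.1, 1265 and 1094.5 at 18 months (log2 difference -1.59 ± 0.29, adjusted p = 0.0711, 0.0043 with the block, limma). Prostaglandin D2 synthase (Ptgds), which also carries small lipophilic molecules, read 1625, 1159, 2067 and 1499 and 389, 439.7, 641 and 585 (log2 difference -1.63 ± 0.31, adjusted p = 0.0828 and 0.0088, limma). For both genes the lowest array at 6 months was above the highest at 18 months. UDP-glucose dehydrogenase (Ugdh), which supplies the sugar acid for glycosaminoglycans and glucuronidation, gave -1.27 (adjusted p = 0.12 and 0.011, limma). The lysosomal thioesterase Ppt1 was 2.01-fold lower (0.158 and 0.0219), and Tc2n, a protein with tandem C2 domains, 3.65-fold lower (0.144 and 0.0088). Tc2n at 6 months held 1 high array, replicate 3, with values of 1129.5, 1155, 2219 and 1218 against 287, 277, 571 and 438 at 18 months. Second probe sets did not all follow: of 14 other tested probe sets of the genes lower by over 2-fold without overlap, 11 were lower and 3 higher, 1 each for Acly, Aldh3a2 and Ugdh, all 3 dimmer than the probe set used.

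**Figure D2:**
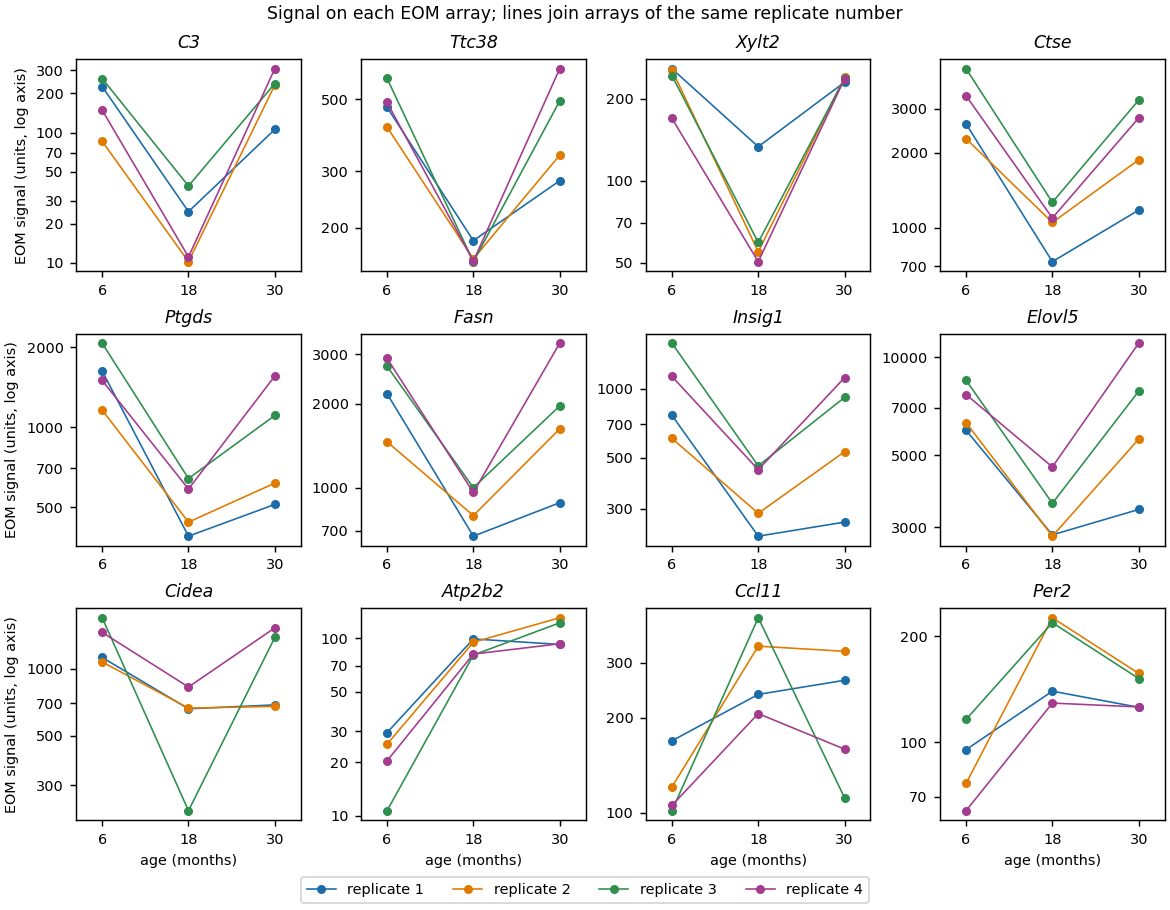
Signal in units (y axis, log scale) of 12 genes on each EOM array at 6, 18 and 30 months (x axis), with arrays of the same replicate number joined by a line. From C3 to Cidea all arrays at 18 months lie below all at 6 months, from Atp2b2 to Per2 all lie above, and at 30 months replicate 1 stays near the 18-month level for Fasn, Insig1 and Elovl5.

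Genes of lipid synthesis lay lower at 18 months as a group. Of the 35 genes on that list 24 were tested, 17 with a lower and 7 with a higher mean at 18 months, and their median log2 difference was -0.38, against 0.05 over all 3222 genes. Without 1 array that median was -0.51 to -0.22, nearest to 0 without replicate 3 at 6 months. None was called without the block, and 4 fell with it, Insig1, Fasn, Elovl5 and Cyp51. Over all 3222 genes the block called 21 lower and 2 higher. On 6 members all arrays at 18 months lay below those at 6 months and on 1, Gpam, all lay above, 29.2% of the list against 4.44% of all genes. The list was written with earlier results of these data known, so its direction is a description.

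Acly, Fasn and Elovl5 each take part in making or lengthening fatty acids. Fasn (50671) read 2169.6, 1459, 2721 and 2902 at 6 months and 669.7, 793, 999 and 960.3 at 18 months, a log2 difference of -1.40 ± 0.32 (adjusted p = 0.198, 0.0162 with the block, limma). Acly (24159) read 6964, 5658, 8172 and 7670.5 and 3059, 4093, 2551 and 3961, a log2 difference of -1.07 ± 0.27 (adjusted p = 0.238, 0.0684 with the block, limma). Of its dimmer probe sets 1, at -1.69, was called with the block, and another had a higher mean at 18 months. The elongase Elovl5 (171400) read 5963, 6296, 8497 and 7680.1 and 2840.5, 2814, 3553 and 4598 (log2 difference -1.06 ± 0.29, adjusted p = 0.272, 0.019 with the block, limma). All 3 genes were well above the array median at both ages, and none overlapped between ages. Other genes of fatty acid synthesis moved less: acetyl-CoA carboxylase Acaca gave -0.34 and Acacb 0.40, the desaturases Scd -0.15 and Scd2 -0.57, malic enzyme Me1 -0.42, and the regulator Srebf1 -0.06, all overlapping between ages.

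On the sterol side, Insig1 (64194) read 765, 608, 1575 and 1129.7 at 6 months and 228, 287, 461.5 and 444 at 18 months, a log2 difference of -1.49 ± 0.41 (adjusted p = 0.275, 0.011 with the block, limma), and its second probe set was called with the block too, at an adjusted p of 0.0162. Lanosterol demethylase Cyp51 read 235, 244, 357.5 and 278 and 102, 127, 200.1 and 161.5 (log2 difference -0.94 ± 0.32, adjusted p = 0.499, 0.0459 with the block, limma). Neither gene overlapped between ages. Squalene epoxidase Sqle was at -1.33 with overlapping arrays, and Fdps, Idi1, Mvd and Lss were at -0.38, -0.66, -0.26 and -0.49. The sterol genes Mvk, Dhcr7 and Fdft1 had higher means, at 0.37, 0.28 and 0.16. For glycerolipids, Dgat1, which makes triglyceride, was at -0.55 without overlap. Gpam, the first acyltransferase of glycerolipid synthesis, went the other way, 44.7, 47.7, 43.5 and 92.3 against 118, 95.0, 118 and 145.5, at 1.12 ± 0.35 (adjusted p = 0.436, 0.0765 with the block, limma).

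Further genes of lipid handling outside that list were among the 54 lower probe sets, chosen after their values were seen. The fatty acid carrier Fabp5 read 4827, 3252, 5906 and 6413 at 6 months and 1708, 2059, 1831.5 and 2203.5 at 18 months (-1.35, 0.0615 adjusted with the block, limma). Acyl-CoA synthetase Acsl5 (-1.34, 0.0191), the lipase and acyltransferase Pnpla3 (-1.33, 0.0177) and fatty aldehyde dehydrogenase Aldh3a2 (-1.18, 0.0459) fell with the block. Hsd17b12, which reduces 3-ketoacyl-CoA in fatty acid elongation, was at -1.32 (adjusted p = 0.0761 with the block, limma) on its brightest probe set. Cidea, a lipid droplet protein, read 1124, 1073, 1695 and 1457 and 661, 665, 230.2 and 828 (-1.29, 0.187), replicate 3 at 18 months lying far below the other three. Detoxifying and small-molecule enzymes in the set were alcohol dehydrogenase Adh1c (-1.18, called with the block at 0.013), Mgst1 (-1.15, 0.0615), Akr7a3 (-1.55, 0.0876) and the mitochondrial carbonic anhydrase Car5b (-1.90, 0.0672). The water and glycerol channel Aqp3 (-1.25, 0.011) and the sialyltransferase St6gal1 (-1.03, 0.0459) fell with the block.

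Promoter windows were read for the lower genes because they moved together in lipid synthesis, and 3 members of that list are shown. Sequences are from RefSeq, rat assembly GRCr8, from 250 bases before to 50 after the start of the gene, 5′ to 3′ along the gene, and capitals mark an E-box (CACGTG) or an SP1 box (GGGCGG, or CCGCCC on the other strand). The Insig1 window is chr4:8057720-8058019 on the minus strand, that of Elovl5 is chr8:87670914-87671213 on the plus strand, and that of Acly is chr10:85963582-85963881 on the minus strand.
Insig1: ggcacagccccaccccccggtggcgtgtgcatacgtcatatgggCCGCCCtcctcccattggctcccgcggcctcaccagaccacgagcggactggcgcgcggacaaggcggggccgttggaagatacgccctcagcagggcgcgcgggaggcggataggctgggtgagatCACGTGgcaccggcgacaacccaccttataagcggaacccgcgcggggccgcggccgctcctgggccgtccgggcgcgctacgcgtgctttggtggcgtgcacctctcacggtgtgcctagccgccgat
Elovl5: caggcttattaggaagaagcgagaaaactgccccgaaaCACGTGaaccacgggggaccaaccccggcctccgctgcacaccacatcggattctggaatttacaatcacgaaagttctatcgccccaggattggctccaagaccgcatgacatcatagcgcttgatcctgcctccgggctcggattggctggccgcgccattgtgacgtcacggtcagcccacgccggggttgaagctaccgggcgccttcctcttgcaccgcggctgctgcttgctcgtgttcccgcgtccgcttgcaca
Acly: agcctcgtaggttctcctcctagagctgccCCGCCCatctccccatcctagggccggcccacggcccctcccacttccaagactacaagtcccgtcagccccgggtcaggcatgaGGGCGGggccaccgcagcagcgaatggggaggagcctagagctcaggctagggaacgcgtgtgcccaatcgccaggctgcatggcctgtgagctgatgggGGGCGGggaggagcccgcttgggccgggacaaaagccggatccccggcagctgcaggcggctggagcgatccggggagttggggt
Of 32 genes lower at 18 months, by the block or by non-overlap over 2-fold, 26 matched a window. An E-box was present in 2 of 26 (7.69%), Insig1 and Elovl5, against 6.65% of all 27457 windows and 9.26% of the windows of genes tested here. An SP1 box was present in 20 of 26 (76.9%), against 34.9% of all windows and 62.5% of those of genes tested. A TATA box (TATAAA, either strand) was present in 3 of 26 (11.5%), against 14.3% of all windows and 9.71% of those of genes tested. The matches describe these letters in this window only.

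The lower genes varied together across arrays. Over the 54 probe sets lower by more than 2-fold without overlap, the median level of an array, as a percentage of the mean of the 6-month arrays on the log scale, was 86.0%, 74.5%, 140.2% and 109% at 6 months, 34.9%, 35.3%, 41.5% and 43.9% at 18 months, and 41.9%, 66.2%, 102% and 128% at 30 months. Replicate 3 was the highest 6-month array on 42 of the 54, replicate 2 the lowest on 36. The 18-month arrays lay within a narrower band than those of the other ages. At 30 months replicate 1 was the lowest array on 46 of the 54 and stood at or below the highest 18-month array on 44, whereas replicates 3 and 4 did so on 2 each. The higher level at 30 months therefore held in replicates 2 to 4 and was largest in replicates 3 and 4.

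The 54 probe sets were of 38 named genes, and 8 had no single symbol. Their mean at 30 months was above that at 18 months on 53 of the 54, with a median log2 difference of 0.96 between 30 and 18 months and -0.36 between 30 and 6 months. Both of those contrasts share arrays with the comparison that chose the genes. Between 30 and 18 months limma called 1 probe set in all, C3, at a log2 difference of 2.78 and higher at 30 months. C3 at 30 months read 106, 231, 238 and 309, Xylt2 229.5, 239, 237 and 236 and Ttc38 279.9, 336, 495 and 622. Xylt2 was thus nearly equal on all 4 arrays at 30 months, inside the 6-month range. Fasn at 30 months read 883, 1622.5, 1960.4 and 3288 and Insig1 263, 532, 916 and 1116, replicate 1 being near the 18-month values of both.

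**Figure D3:**
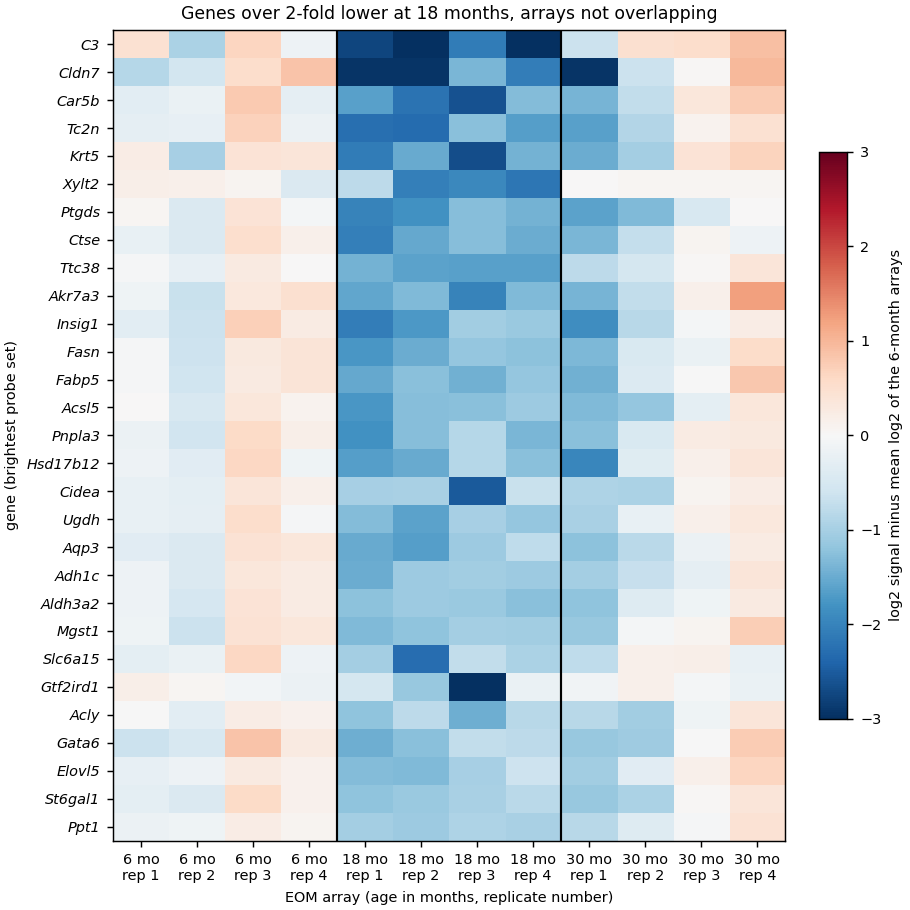
Each row is 1 of the 29 genes whose brightest probe set was over 2-fold lower at 18 months without overlap, and each column 1 EOM array (age in months and replicate number). Colour gives the log2 signal minus the gene's mean over the 6-month arrays, with signals under 20 units set to 20. The 4 columns at 18 months are blue throughout, and at 30 months replicate 1 is blue for most genes while replicates 3 and 4 are pale or red.

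The lower genes were mostly brighter in EOM than in EDL at 6 months. Of the 54 probe sets, 51 had a higher mean in EOM, by a median of 8.90-fold, against 2506 of all 5370 and a median of 0.974-fold. The 54 were chosen partly by high 6-month EOM values, so this is a description. For 7 of the 54, each of the 8 EDL arrays from 6 and 18 months read at the floor, so no change could be measured there. The other 47 had a median log2 difference of -0.15 between 18 and 6 months, 31 lower and 16 higher, against 0.04 over 5348 probe sets. Ptgds, for example, averaged 51.0 ± 21.9 in EDL at 6 months and 74.7 ± 56.2 at 18 months, and Fasn 199 ± 74.6 and 199.8 ± 79.3. The change in EOM minus that in EDL, tested over all 24 arrays and 5748 probe sets, was called for 0 probe sets by limma (252 at an unadjusted p under 0.05). With the block 1 was called, Ccnd2, a cyclin of the G1 phase, at a difference of -1.84 (adjusted p = 0.0141, limma). Ccnd2 read 178, 265, 299 and 170.2 at 6 months and 74.1, 145, 207 and 66.8 at 18 months in EOM, overlapping, and averaged 196 ± 71.9 and 349 ± 122 in EDL. A second probe set of Ccnd2 gave 0.05 in EOM. No gene of the lipid synthesis list was called for a difference between the muscles.

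On a list of orbital gland genes, Cldn7 and Ctse fell with the block, and the list as a whole had no single direction. Of 20 members tested 10 had a lower and 10 a higher mean, and the median log2 difference was -0.13 against 0.05 over all genes. An unadjusted limma p under 0.05 was met by 6 members, all lower, against 112 lower and 89 higher of all 3222 genes. The block called 21 lower and 2 higher of those 3222. The median of the list was -0.48 to 0.04 without 1 array, above 0 without replicate 3 or 4 at 6 months or replicate 1 at 18 months. Claudin 7 (Cldn7), a tight junction protein of epithelia, read 85.0, 105, 221.5 and 275 at 6 months and 19.2, 14.8, 59.2 and 36.2 at 18 months (-2.16 ± 0.64, adjusted p = 0.345, 0.0412 with the block, limma). The basal cell keratin Krt5 read 146, 62.8, 168 and 161 and 29.1, 43.9, 16.6 and 47.1 (-1.75, 0.0876 with the block), and neither it nor Cldn7 overlapped between ages. With Ctse these were the 3 members without overlap, 15% of the list against 4.44% of all genes. The simple epithelial keratin Krt8 (-1.16), the adhesion molecule Epcam (-1.21) and the water channel Aqp5 of secretory cells (-0.65) overlapped and were not called in either fit, nor were Krt19, Krt14 and Cldn3 (lower means) or Muc1, Muc4 and Pip (higher means).

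Genes of secreted gland proteins overlapped between ages. Spt1, a salivary-type secreted protein, read 603, 823, 16579 and 5775 at 6 months and 162, 164, 24663.5 and 31849 at 18 months, with replicates 3 and 4 above replicates 1 and 2 at both ages by a wide margin, and 160.1, 255, 273 and 229 at 30 months. Pip showed the same order, with 39.8, 38.4, 2607 and 368 at 6 months and 13.3, 79.5, 3294 and 3573 at 18 months. At 30 months it read 30.3, 33.4, 79.6 and 64.7. Tissue kallikrein Klk1 read 2339, 3029, 2158 and 1870.2 and 2879, 3078, 1996 and 1745, a difference of 0.03, with replicates 1 and 2 above replicates 3 and 4 at both ages, the reverse of Spt1. The related kallikreins Klk1c9 (0.49) and Klk1c12 (0.55) overlapped between ages and did not show that order at 18 months. Smr3b read 76.0, 14.8, 113 and 102 and 53.0, 28.6, 151 and 135. Of 13 markers of lacrimal or Harderian gland, 9 were on the array and 7 were tested. None of the 7 was called or free of overlap, Krt18 and Scgb1a1 were too dim to be tested, and the summed signal of the markers was 4005 to 20165 units at 6 months, 3725.5 to 34648 at 18 months and 5453 to 7161 at 30 months. The sum is carried mostly by Spt1 and Klk1. The part of gland tissue in the lower genes was not tested.

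**Figure D4:**
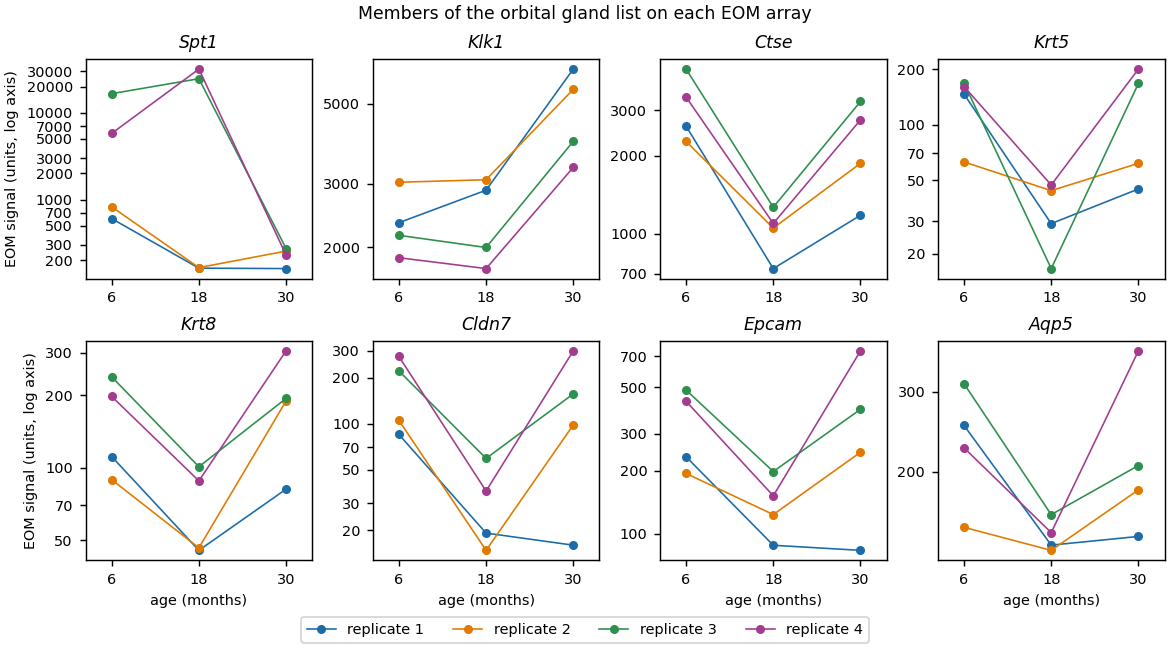
Signal in units (y axis, log scale) of 8 members of the orbital gland list on each EOM array at 6, 18 and 30 months (x axis), lines joining arrays of the same replicate number. Ctse, Krt5 and Cldn7 are lower on all arrays at 18 months, whereas Spt1 is high on replicates 3 and 4 and low on replicates 1 and 2 at 6 and 18 months.

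Fat-cell genes gave no single direction. Of 13 adipocyte genes tested 8 had a lower mean, with a median log2 difference of -0.15, and the 3 without overlap, Cidea, Fasn and Acly, were all lower, 23.1% of the list against 4.44% of all genes, Fasn and Acly also being members of the lipid synthesis list. Fabp4, the fatty acid carrier of adipocytes, was at -0.16, Lpl at 0.05 and complement factor D (Cfd) at 0.18, all overlapping, while the adipogenic receptor Pparg was at -1.06 with overlap. The summed signal of 7 adipocyte markers was 4889 to 6141 units at 6 months and 4419.5 to 4963 at 18 months. Their part in the lower genes was not tested.

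Higher at 18 months, Atp2b2 rose in both fits and Rab3b in the blocked fit. Atp2b2, a pump that moves calcium out of the cell, read 29.4, 25.3, 10.7 and 20.4 at 6 months and 98.9, 94.8, 80.3 and 81.3 at 18 months, a log2 difference of 1.68 ± 0.27 (adjusted p = 0.0351, 0.0153 with the block, limma). It was dim: 2 of the 4 arrays at 6 months lay at the floor, and all 8 values were below the median of all signals. In the 8 fits without 1 array it was called in none, at an adjusted p of 0.0768 to 0.170. At 30 months it read 92.1, 130.1, 122 and 92.9. Rab3b, a small GTPase of vesicle release, read 1432, 1155, 1042 and 886 and 2016, 1861, 1381 and 1366 (0.55, adjusted p = 0.0459 with the block, limma), with overlapping ranges.

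The other genes with the smallest p-values in the upward direction were not called in either fit. Ccl11, the eosinophil attractant eotaxin, read 169, 121, 101.5 and 105.5 at 6 months and 238, 338, 416 and 206.5 at 18 months (1.25, adjusted p = 0.255, 0.11 with the block, limma). Cd55, which protects cells from complement, read 311, 414, 276 and 311 and 649, 618, 624 and 519 (0.89, 0.0615 with the block). Neither overlapped between ages. The mitochondrial thioesterase Acot2 (0.70), the nucleoside carrier Slc28a2 (0.74) and the smooth muscle light chain Myl9 (1.22) also did not overlap, nor did the dimmer Slc6a7, Abo and Msn. The neurofilament Nefm (1.08) overlapped.

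Genes of the circadian clock were higher at 18 months with Bmal1 as the exception, and none was called. Of 10 tested 9 had a higher mean, against 1874 of all 3222 genes. Their median log2 difference was 0.52, against 0.05 over all genes. Per2, a repressor of the clock, read 95.2, 76.3, 116 and 63.8 at 6 months and 139.7, 226, 219 and 129 at 18 months (1.01 ± 0.27, adjusted p = 0.247, 0.0615 with the block, limma). The output factor Dbp read 443, 294, 643 and 354 and 759.7, 1377, 677 and 805 (1.07 ± 0.37, adjusted p = 0.529, limma). Per2, Dbp and Bhlhe40 (0.61) did not overlap, 30% of the list against 4.44% of all genes. Bmal1, the activator that Per2 and its partners oppose, read 348, 541, 246 and 405 and 259.7, 30.7, 171 and 208 (-1.51 ± 0.55, adjusted p = 0.59, limma), replicate 2 at 18 months being by far the lowest. In EDL the same list had a median of 0.55 between 18 and 6 months, with Dbp at 1.68, Per2 at 0.71 and Bmal1 at -1.25. The labels give no hour of collection for any pool, so age and hour cannot be told apart.

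Genes of antigen presentation and the interferon response were mostly higher by small amounts, and none was called. Of 28 tested 27 had a higher mean, against 1874 of all 3222 genes, the exception being the class I gene RT1-N3. The median log2 difference was 0.24, against 0.05 over all genes and -0.08 for the same genes in EDL. The immunoproteasome subunit Psmb8 read 194, 197, 186 and 206 at 6 months and 421, 347, 363 and 266 at 18 months (0.82 ± 0.26, adjusted p = 0.427, limma). Its 6-month arrays lay close together and all below the 18-month arrays. The proteasome activators Psme1 (0.46) and Psme2 (0.30), the peptide transporter subunit Tap2 (0.68) and the antiviral Oas1a (0.60) also did not overlap. With Psmb8 they were the 5 members without overlap, 17.9% of the list against 4.44% of all genes. The class I and class II chains B2m (0.19), RT1-Da (0.13) and Cd74 (0.10) overlapped. The difference between the muscles was not called for any of these genes. Summed markers of macrophages were 1148 to 2097.5 units at 6 months and 1766 to 2248 at 18 months, and those of T and B cells 558.5 to 757 and 583 to 876, with no member of either called. Their part in these values was not tested.

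The contractile and energy genes of the muscle fibre showed no called member in either direction apart from the 2 named here. Median log2 differences were 0.12 for fast sarcomere genes (16 tested), 0.10 for slow and cardiac (13), 0.15 for developmental and extraocular isoforms (15), 0.15 for the neuromuscular junction (21), 0.14 for glycolysis (28), 0.08 for oxidative phosphorylation (41) and 0.13 for fatty acid oxidation and the TCA cycle (53), against 0.05 over all genes. Calcium handling (33 tested, median 0.14) held Atp2b2, and fatty acid oxidation held Acsl5 as a call of the blocked fit. At the neuromuscular junction the acetylcholine receptor subunit Chrnd was higher without overlap, at 0.43. Growth control (40 tested) had a median of 0.05.

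Extracellular matrix genes had a median of -0.06 over 46 tested, 29 with a lower mean, and 1 was called with the block. Collagen Col1a1 read 3619.5, 6599, 5567 and 6722 at 6 months and 2400.3, 2566, 4689 and 2892 at 18 months (-0.85 ± 0.25, adjusted p = 0.317, 0.0452 with the block, limma), with 1 array at 6 months inside the 18-month range. In EDL its log2 difference over the same ages was -1.62. Protein folding (29 tested, median -0.05), antioxidants and detoxification (53, -0.02), ubiquitin and the proteasome (43, -0.03), ribosomal proteins (49, 0.01), immediate early genes (34, 0.00) and the cell cycle (15, -0.01) stood near 0. In the antioxidant list the block called Aldh3a2, the only call among those 6 lists.

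Among lists of other cells, macrophages with complement and inflammation (31 tested) had a median of 0.15 and held C3. The lists of T and B lymphocytes (8 tested, median 0.18), mast cells (6, 0.17), endothelium (16, 0.22), erythrocytes (5, 0.14), retina and lens (8, 0.32), Schwann cells and nerve (25, 0.06) and smooth muscle (14, -0.12) had no call in either fit. In the list of Schwann cells and nerve 4 genes did not overlap, 16% of the list against 4.44% of all genes. Of these 2 were lower (the Schwann cell factor Sox10, at -0.99, and the surface protein Thy1, at -0.68) and 2 higher (S100b, at 0.32, and Sncg, at 0.49). The lens protein Crybb2 was higher without overlap, at 0.46. Of the retina and lens markers 7 of 14 were on the array and 4 were bright enough to be tested.

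**Figure D5:**
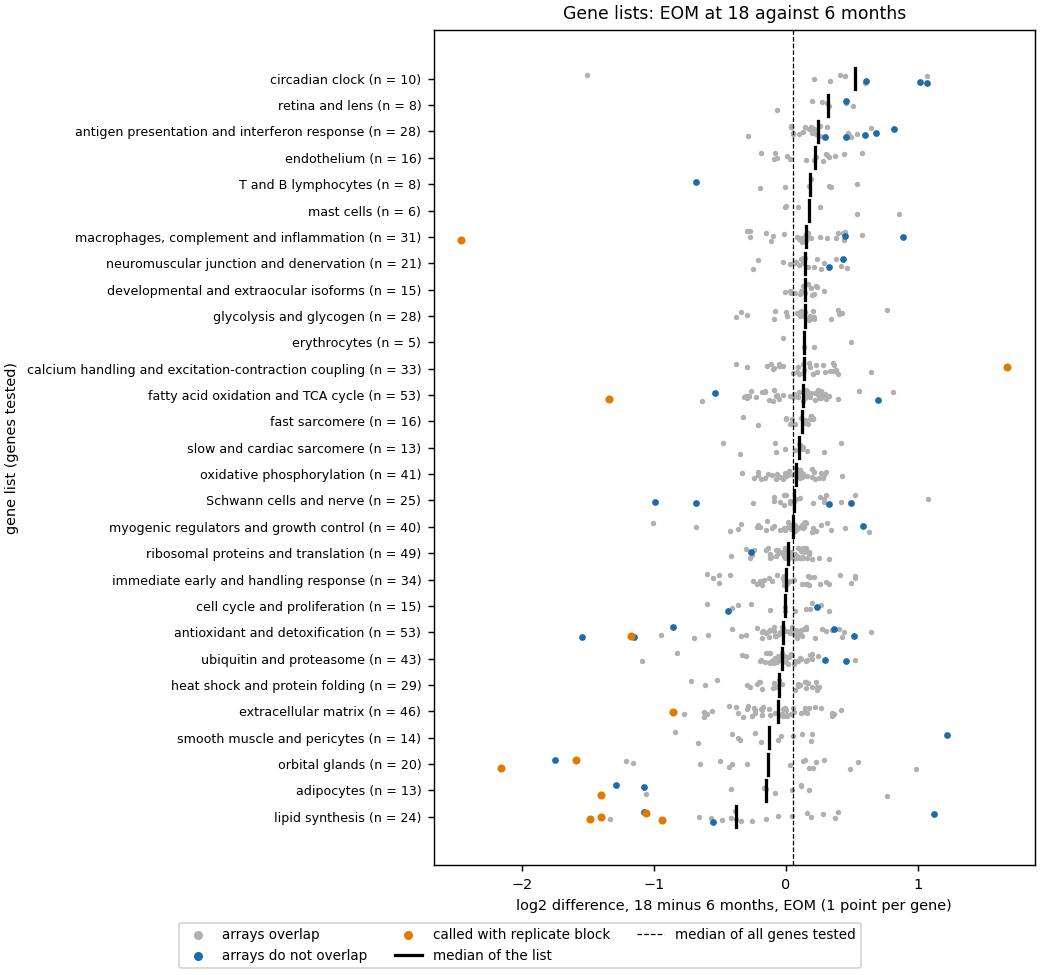
Log2 difference between 18 and 6 months in EOM (x axis) for each tested gene of the 29 lists (y axis), with the list's median as a bar and the median of all genes tested as a dashed line. Lipid synthesis has the lowest median, at -0.38, and the circadian clock the highest, at 0.52, and the calls of the blocked fit lie mostly below 0.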

How the data were processed

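The authors hybridised EOM and EDL RNA to Affymetrix U34 rat arrays and processed the scans with Microarray Suite 5.0, per the submitters' processing notes. Their deposited table holds an intensity on a linear scale for every array and probe set. The labels name a pair of dyes, the design text a biotin and streptavidin stain, and 1 value per array was treated as 1-colour. Detection calls were not used here. The trimmed mean was 501 units on every EOM array, so the deposited intensities were taken as scaled. The main fit gave every array equal weight, a choice that the trimmed mean does not bear on, and an alternative used array weights.

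Values under each array's 25th percentile (22.5 to 32.4 units on the 8 arrays) were set to it as a floor, and log2 was taken. Probe sets above the 40th percentile on at least 3 of 4 arrays of 1 EOM age were tested, and 3370 were not. A means model of the 12 EOM arrays was fitted with limma 3.58.1 in R 4.3.3 (eBayes with an intensity trend, 9 residual degrees of freedom), checked on simulated data, with two-sided p-values adjusted by Benjamini-Hochberg. EDL arrays entered only the fit of 24 arrays for the difference between muscles. Same-numbered arrays of 6 and 18 months correlated in their deviations from the group means at 0.13, 0.15, 0.30 and 0.25, and all 12 pairs of EOM ages were above 0.1. The numbers were therefore used as a block in an alternative fit, while the planned main fit had none. Blocked values stand beside results whose call they change. Arrays of unlike numbers were not compared in this way. Array medians also followed the number at each age. They were 104.5 to 112.4 units on replicates 1 and 2 and 117 to 136.8 on replicates 3 and 4. What the numbers mark was not tested.

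Platform annotation gave 7006 probe sets 1 symbol, 308 several and 1426 none, and 6985 of the 7006 were found in RefSeq for GRCr8 with no symbol changed. A gene is represented by its brightest probe set. The rule for naming genes took the called, non-overlapping and brighter genes (C3, Ttc38, Xylt2), filled to 8 per direction by the smallest p. It added up to 4 called genes or the 2 of smallest p of a list, and checks of the tissue. Further genes, among them other list members and genes called only with the block, were named after their values were seen. The comparison and the 29 gene lists were chosen with earlier results of these data known. Alternatives covered arrays fitted, scaling, floor, filter, moderation, weights, pairing and each array left out.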

Additional observations from a re-analysis of the deposited data

Results flagged for a closer look

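A single array stood apart from the other three of its age in 4 of the 42 sets of 4 arrays examined, by the ratio of the outermost gap to the range, a ratio that chance takes past Dixon's critical value in about 1 set of 20. Tc2n at 6 months gave 0.919, with replicate 3 at 2219 units against 1129.5 to 1218. Ttc38 at 18 months gave 0.878, with replicate 1 at 183 units against 157 to 160.3. Xylt2 gave 0.835 at 6 months, where replicate 4 was low at 169 units against 243 to 257, and 0.892 at 18 months, where replicate 1 was high at 133 units against 50.4 to 59.3.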

How the results depend on the processing

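None of 46 gene differences followed through every alternative changed sign. These genes were chosen by a call, a small p-value or non-overlap in these same arrays, so their signs had little room to change. Where the arrays of the 2 ages did not overlap, leaving arrays out could not reverse the sign. Of 29 list medians 13, among them orbital glands and extracellular matrix, changed sign in at least 1 alternative. The count of 5 called probe sets became 10 with all 24 arrays, 28 with only the 8 arrays compared, 2 after quantile normalisation, 29 with arrays centred on the median, 0 without a filter, 24 with array weights, 36 with the replicate block, 38 with replicates 1 and 2 against 3 and 4 as a block, and 0 on replicates 1 and 2 alone or 3 and 4 alone. Of these called and at least 2-fold were 10, 27, 2, 25, 0, 22, 31, 35 and 0, in that order, against 5. Without 1 array both counts were 0 to 2. The blocked count of 36 was 64 with median centring and 1 to 36 without 1 array (1 without replicate 1 or 3 at 6 months or replicate 4 at 18 months, 22 without replicate 2 and 18 without replicate 3 at 18 months). These 2 settings, and the next with both changes, were added after seeing the data. The difference between muscles, with 0 calls, gave 1 with quantile normalisation, 1 with the replicate block, 2 with both and 0 to 3 without 1 array. The 63 non-overlapping probe sets over 2-fold were 71 or 72 under other scalings and 66 to 83 without 1 array. C3 and Ttc38 were called in 13 of 23 alternatives, Xylt2 in 12 of 23 and Atp2b2 in 9 of 22. Scaling moved the median of all probe sets by -0.02 (quantile) or -0.06 (centred). With 4 arrays per age, values near the floor are understated. The cause of these shifts was not tested.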
